A study of Mus musculus with 6 samples.

Results

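The 8 genes described here act in the adipocyte lineage or in lipid uptake and release: the transcription factors Pparg, Cebpa, Cebpb, Ebf1 and Zfp423, the fatty acid receptor Cd36 and the lipases Lpl and Lipe. They were chosen by name, with earlier results of these data known. All 8 had a row among the 16455 genes of the count table and passed the filter on low counts, which left 13630 genes for testing. Total RNA was sequenced from primary osteoblasts of TCKO mice (Prx1-Cre with Tet1 fl/fl, Tet2 fl/fl and Tet3 fl/fl, a triple conditional knockout) and of WT mice, in 3 libraries per genotype. Both genotypes were on the C57/B6 background, the pups were 3 days old, and the cells had been in culture for 3 days in medium with serum. The methods describe the cells as released from parietal bone by enzyme digestion, and describe no sort for a marker. Prx1-Cre acts in early limb and skull mesenchyme, and cells that never expressed it keep their Tet genes. The labels do not say whether WT mice carried floxed alleles, nor whether the libraries of a genotype came from separate animals or cultures, so the p-values measure only the spread between these libraries, which may be technical.

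Libraries held 8119261 to 10657824 counted reads. At the level of whole genes, Tet1 was lower (edgeR adjusted p = 0.0207), Tet2 did not pass (0.244) and Tet3 was higher (0.00803). Tet1 had 6.53, 4.67 and 3.99 CPM (counts per 1000000 reads, after TMM scaling) in TCKO libraries, against 8.86, 9.30 and 11.02 CPM in WT libraries. Tet2 had 14.2, 9.83 and 12.1 CPM in TCKO and 13.6, 15.2 and 15.3 CPM in WT, and Tet3 had 66.4, 57.5 and 59.1 CPM in TCKO and 43.3, 46.3 and 41.6 CPM in WT. Reads over a whole gene do not show whether the floxed exons were lost. Replicates 1 and 2 of each genotype lay close together (SD of the log2 difference over 5911 genes 0.11 in TCKO and 0.10 in WT), while replicate 3 stood 0.33 from both in TCKO and 0.28 from both in WT. The 12 osteoblast markers with a row summed to 21753 to 38081 CPM in TCKO and 41571 to 44726 CPM in WT. Of the 10 tested, 5 were lower and 1 higher (60%, against 18.3% of all genes tested), with a median log2 fold change of -0.66. Among them were Alpl at -3.21 (edgeR adjusted p = 0.0204) and Spp1 at 2.69 (0.024), so these markers were present but differed with genotype.

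Mesenchymal progenitors can become osteoblasts, chondrocytes or adipocytes. In the adipocyte branch, Zfp423 and Ebf1 act early, Cebpb is induced first after an adipogenic stimulus, and Cebpa and Pparg then maintain each other and switch on lipid genes. Lpl releases fatty acids from circulating lipoproteins, Cd36 helps carry them into the cell, and Lipe (hormone-sensitive lipase) releases them again from stored fat. TET enzymes oxidise methylated cytosine, mostly at CG dinucleotides, which is a step towards its removal.

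Cd36 was 2.18-fold lower and Lpl 1.90-fold lower in TCKO osteoblasts (edgeR adjusted p = 0.0142 and 0.0148), and both were lower in each of the 3 TCKO libraries than in any WT library. None of the 5 transcription factors passed, nor did Lipe, and 7 of the 8 estimates were below 0. That Cd36 and Lpl differ from the others in their response was not tested. Thus 2 of 8 genes passed (25%), both lower, against 18.3% of all genes tested, 8.9% in that direction and 9.44% in the other. Cd36 alone passed with a fold above 2, which 6.07% of all genes did. At an unadjusted p under 0.05, 0 of the 8 genes had a positive estimate in edgeR and 4 had a negative one. In DESeq2 and in limma-voom 1 had a positive estimate and 4 a negative one. None with a positive estimate passed after adjustment in these fits. How many of all genes met the unadjusted threshold was not counted. The median log2 fold change was -0.49 for the 8 genes and -0.0011 for all genes tested.

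Promoter sequences of 3 of the genes are shown because TET enzymes act at CG dinucleotides and these windows differ widely in how many they hold: the largest fall (Cd36), the transcription factor with the largest estimated fall (Cebpa) and the gene with the only positive estimate (Cebpb). Each runs from 250 bases before to 50 bases after a RefSeq start site (build GRCm38.p6), 5′ to 3′ on the strand of the gene, with CG in capitals. They lie at chr5:17835847-17836146 on the minus strand for Cd36, chr7:35119043-35119342 on the plus strand for Cebpa and chr2:167688665-167688964 on the plus strand for Cebpb. The Cd36 window lies well inside the gene, whose outermost start had no window. The Cebpa and Cebpb windows span the first base of the gene.
Cd36: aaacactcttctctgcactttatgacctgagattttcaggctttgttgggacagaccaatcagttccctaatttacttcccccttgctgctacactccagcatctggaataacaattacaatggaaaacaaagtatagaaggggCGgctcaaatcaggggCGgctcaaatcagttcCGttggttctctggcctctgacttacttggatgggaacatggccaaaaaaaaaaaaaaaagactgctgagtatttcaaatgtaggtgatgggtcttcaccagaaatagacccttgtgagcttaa
Cebpa: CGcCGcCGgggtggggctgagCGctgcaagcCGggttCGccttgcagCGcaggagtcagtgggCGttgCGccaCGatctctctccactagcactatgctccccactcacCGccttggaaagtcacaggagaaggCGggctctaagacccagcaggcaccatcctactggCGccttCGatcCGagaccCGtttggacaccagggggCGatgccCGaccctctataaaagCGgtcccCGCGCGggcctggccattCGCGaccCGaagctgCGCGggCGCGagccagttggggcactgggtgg
Cebpb: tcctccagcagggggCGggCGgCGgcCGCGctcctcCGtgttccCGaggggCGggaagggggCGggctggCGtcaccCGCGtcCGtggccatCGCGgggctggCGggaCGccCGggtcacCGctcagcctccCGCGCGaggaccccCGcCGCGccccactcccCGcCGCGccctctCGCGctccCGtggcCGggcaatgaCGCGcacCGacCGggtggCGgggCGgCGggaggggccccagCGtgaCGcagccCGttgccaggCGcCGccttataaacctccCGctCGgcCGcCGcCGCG
The Cd36 window holds 3 CG dinucleotides, and 31.4% of all 32851 promoter windows of this length hold as few or fewer. The Cebpa window holds 29 (88.3% of windows hold as few or fewer) and the Cebpb window 50 (99.3%). The letters TATAAA, searched on both strands, occur in the Cebpa and Cebpb windows and not in the Cd36 window, and in 13.6% of all windows. The letters CCAAT occur in the Cd36 window only among these 3, and in 37.4% of all windows. In all, 7 of the 8 genes had 12 windows, with 2 to 50 CG dinucleotides, and the windows of Pparg alone ran from 2 to 44. No methylation was measured in the data used here, so these are features of the reference sequence.

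**Figure D1:**
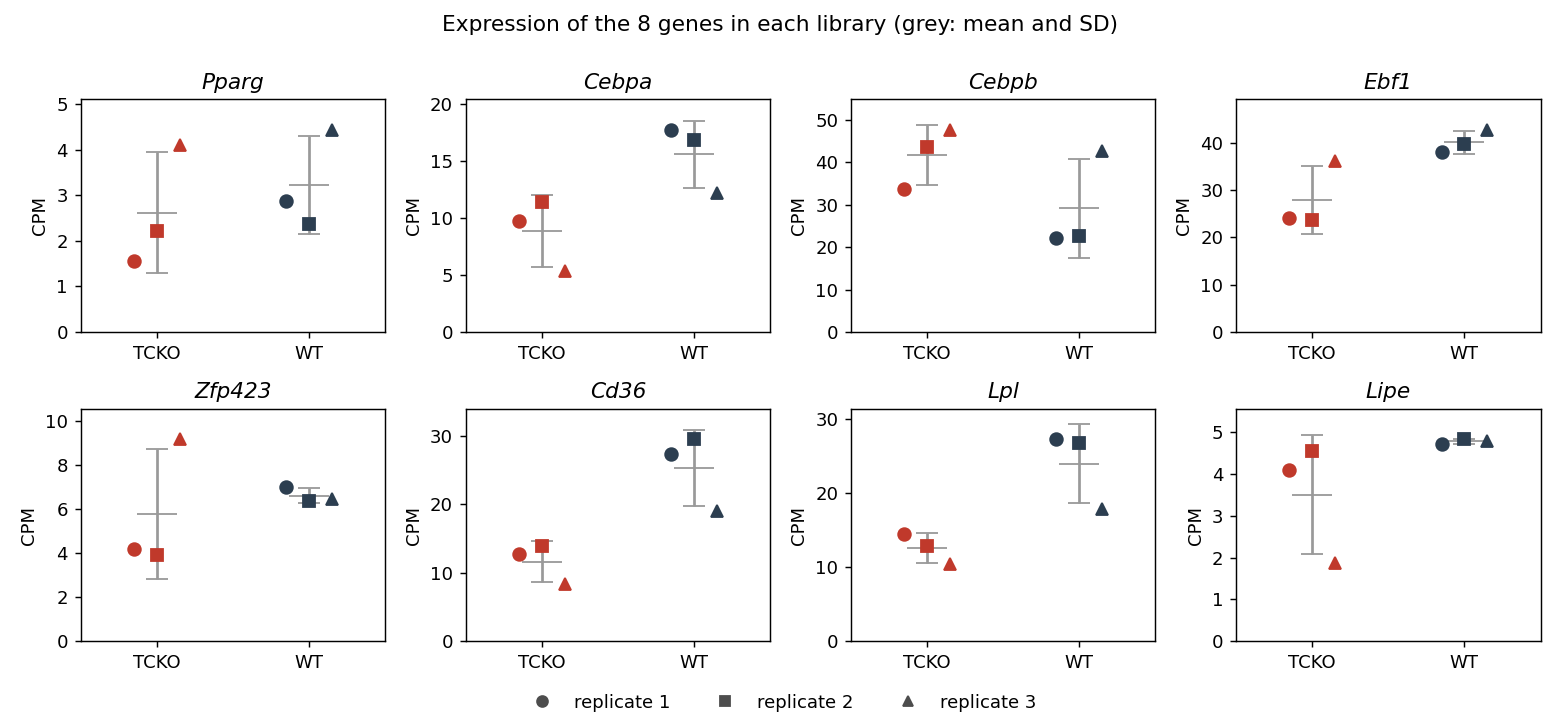
Expression in CPM of each of the 8 genes (y axes) in TCKO and WT libraries (x axes), 1 point per library with a marker shape per replicate number, and the mean and SD over 3 libraries in grey. TCKO and WT points do not overlap for Cebpa, Ebf1, Cd36, Lpl and Lipe, and replicate 3 often lies apart from replicates 1 and 2 in both genotypes.

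Cd36 (fatty acid translocase, chromosome 5, 17781690 to 17888959, minus strand, Entrez 12491) had 12.7, 13.9 and 8.30 CPM in the TCKO libraries, against 27.3, 29.5 and 19.1 CPM in the WT libraries. The highest TCKO library thus lay below the lowest WT library. The means were 11.6 ± 2.95 CPM in TCKO and 25.3 ± 5.51 CPM in WT (SD, n = 3 each), and the log2 fold change was -1.12 ± 0.23 (SE, 95% interval -1.66 to -0.59). Between libraries of the same number, TCKO minus WT was -1.09, -1.08 and -1.18 on the log2 scale for replicates 1, 2 and 3, so the fall was of like size in replicates 1 and 2 and in replicate 3. The call was lost without WT replicate 1 (adjusted p = 0.0593) and without WT replicate 2 (0.0623).

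Lpl (lipoprotein lipase, chromosome 8, 68880555 to 68906932, plus strand, Entrez 16956) had 14.5, 12.9 and 10.4 CPM in TCKO, against 27.3, 26.8 and 17.9 CPM in WT. Again no TCKO library reached the lowest WT library. The means were 12.6 ± 2.07 CPM in TCKO and 24.0 ± 5.30 CPM in WT (SD, n = 3 each), with a log2 fold change of -0.93 ± 0.20 (SE, 95% interval -1.38 to -0.48). Its difference was -0.90, -1.04 and -0.77 on the log2 scale between libraries numbered 1, 2 and 3. The call was lost without WT replicate 1 (adjusted p = 0.0655), WT replicate 2 (0.0689) or TCKO replicate 2 (0.0549). When replicates 1 and 2 of each genotype were summed into 1 library, which leaves 2 against 2, neither Cd36 (0.143) nor Lpl (0.163) passed, nor did any of the 8 genes. In that fit 2.44% of all genes passed after adjustment. Before adjustment 2 of the 8 had a p under 0.05, and how many of all genes did was not counted.

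Lipe (hormone-sensitive lipase, chromosome 7, 25379527 to 25398486, minus strand, Entrez 16890) was measured at few reads. It had 4.10, 4.55 and 1.88 CPM in TCKO (37, 37 and 17 reads) and 4.72, 4.84 and 4.79 CPM in WT (41, 51 and 40 reads). All TCKO libraries were below all WT libraries, but only TCKO replicate 3 was far below, and the log2 fold change of -0.45 ± 0.31 did not pass (SE, 95% interval -1.17 to 0.26, edgeR adjusted p = 0.353). A lncRNA, 4732471J01Rik, overlaps the gene, and since no source used here says whether counting used strand, reads of the pair may not have been told apart.

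Among the transcription factors, Cebpa (C/EBP alpha, chromosome 7, 35119293 to 35121928, plus strand, Entrez 12606) had 9.74, 11.4 and 5.31 CPM in TCKO, against 17.7, 16.8 and 12.2 CPM in WT. The genotypes did not overlap, and TCKO replicate 3 was the lowest of the 6 libraries. The log2 fold change of -0.83 ± 0.28 (SE, 95% interval -1.47 to -0.18) did not pass over all genes (edgeR adjusted p = 0.0777). Fitted with the replicate number as a block, which compares libraries of the same number, Cebpa passed (adjusted p = 0.00777), and it also passed in DESeq2 (0.0371) and without WT replicate 3 (0.0487).

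Ebf1 (early B cell factor 1, chromosome 11, 44618100 to 45008096, plus strand, Entrez 13591) had 24.0, 23.6 and 36.2 CPM in TCKO, against 38.0, 39.8 and 42.8 CPM in WT. No TCKO library reached the lowest WT library, and TCKO replicate 3 came close to it. Its log2 fold change was -0.52 ± 0.17 (SE, 95% interval -0.91 to -0.14, edgeR adjusted p = 0.0661). It passed with the replicate block (0.0133), in DESeq2 (0.0433) and without TCKO replicate 3 (0.00141).

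Cebpb (C/EBP beta, chromosome 2, 167688915 to 167690432, plus strand, Entrez 12608) was the gene with a positive estimate. It had 33.8, 43.6 and 47.6 CPM in TCKO, against 22.2, 22.5 and 42.7 CPM in WT. WT replicate 3 lay within the TCKO range, while the other WT libraries were below it. The log2 fold change of 0.52 ± 0.28 did not pass (SE, 95% interval -0.15 to 1.19, edgeR adjusted p = 0.249), but did with the replicate block (0.0447) and without WT replicate 3 (0.00557).

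Pparg (chromosome 6, 115360879 to 115490404, plus strand, Entrez 19016), the nuclear receptor that drives adipocyte differentiation, was low throughout. It had 1.55, 2.21 and 4.10 CPM in TCKO (14, 18 and 37 reads) and 2.88, 2.37 and 4.43 CPM in WT (25, 25 and 37 reads). The ranges overlapped, and replicate 3 was the highest library in both genotypes. The log2 fold change was -0.28 ± 0.40 (SE, 95% interval -1.21 to 0.65, edgeR adjusted p = 0.671), so that at this depth neither a fall of more than 2-fold nor a modest rise lay outside the interval.

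Zfp423 (chromosome 8, 87661810 to 87962053, minus strand, Entrez 94187), a zinc finger factor of preadipocytes, had 4.21, 3.93 and 9.19 CPM in TCKO, against 7.02, 6.36 and 6.47 CPM in WT. TCKO replicates 1 and 2 were below every WT library and TCKO replicate 3 above every one. The log2 fold change was -0.19 ± 0.32 (SE, 95% interval -0.94 to 0.56, edgeR adjusted p = 0.727), and without TCKO replicate 3 the gene passed as lower (0.039). A lncRNA, Gm34412, overlaps Zfp423 as well.

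**Figure D2:**
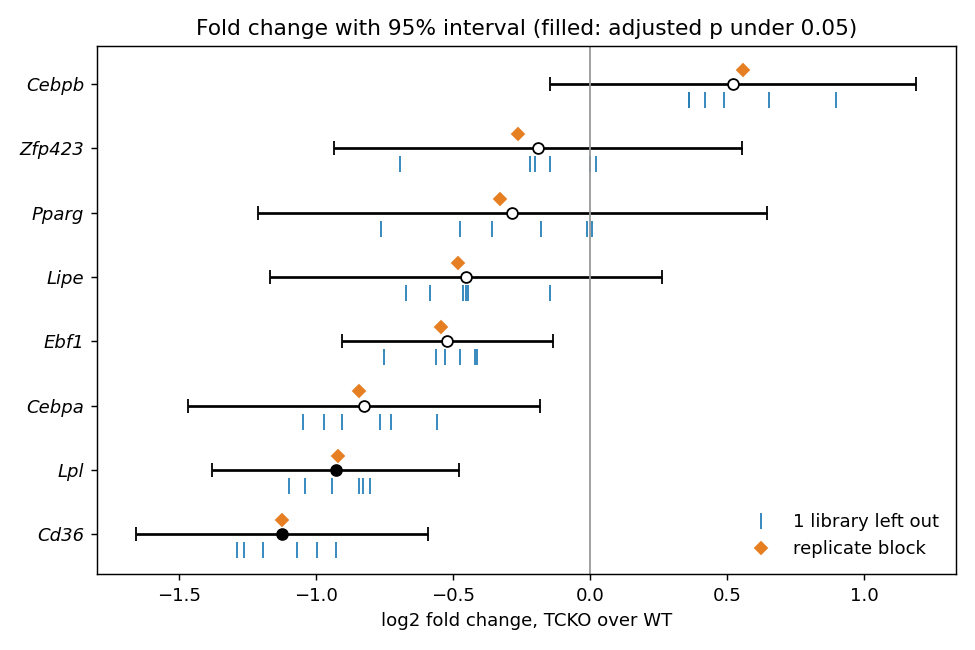
Log2 fold change of TCKO over WT (x axis) for each gene (y axis), with the 95% interval, the estimate with the replicate block (diamonds) and the 6 estimates with 1 library left out (ticks). Filled points passed at an adjusted p under 0.05, and these are Cd36 at -1.12 and Lpl at -0.93.

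With the replicate block, 5 of the 8 genes passed, against 24.6% of all genes: Cd36, Lpl, Cebpa and Ebf1 as lower and Cebpb as higher. Counted without a test, 5 of the 8 genes (Cebpa, Ebf1, Cd36, Lpl and Lipe) had no overlap between the libraries of the genotypes, and 38.2% of all genes tested did. In each genotype Cebpb had the highest level per exon length, with 27.7 ± 4.74 RPKM (reads per kb of exon and 1000000 reads) in TCKO and 19.4 ± 7.80 in WT (SD, n = 3 each). Cebpa (3.35 ± 1.20 in TCKO, 5.91 ± 1.12 in WT), Cd36 (3.24 ± 0.821 in TCKO, 7.04 ± 1.54 in WT) and Ebf1 (2.86 ± 0.734 in TCKO, 4.12 ± 0.249 in WT) followed on this scale, and in TCKO these 3 levels did not differ beyond their spread. In WT, Cd36 and Cebpa lay within each other's spread, and both were above Ebf1 in every library. Lpl (1.20 ± 0.197 in TCKO, 2.29 ± 0.506 in WT), Zfp423 (1.03 ± 0.528 in TCKO, 1.18 ± 0.0632 in WT), Pparg (0.887 ± 0.447 in TCKO, 1.09 ± 0.364 in WT) and Lipe (0.596 ± 0.242 in TCKO, 0.813 ± 0.0104 in WT) were the lowest per length. In TCKO these last 4 did not separate from their neighbours in the order, and in WT Lpl was above the other 3 in every library. Lengths cover all annotated exons of a gene, so a gene with long alternative exons is placed lower.

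Few markers of mature adipocytes could be compared. Of 20 adipocyte markers, 14 had no row in the table, including Adipoq, Plin1 and Lep. Genes with a total under 10 reads over the 6 libraries are not listed. The 14 were thus below that total or not counted at all, and no exact level can be given for them. The 6 with a row summed to 11.3, 15.2 and 17.2 CPM in TCKO and 15.5, 15.3 and 15.9 CPM in WT, and Fabp4, the fatty acid binding protein of adipocytes, was at most 1.11 CPM in TCKO and 1.08 CPM in WT. None of the 4 tested passed in edgeR, DESeq2 or limma-voom. At an unadjusted p under 0.05 there were 2, 2 and 1, all with a negative estimate. The share of all genes at that threshold was not counted.

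Markers of other cells were compared between the genotypes as well. In bulk RNA, fewer cells of a type and less RNA per cell cannot be told apart. The 16 macrophage markers summed to 630, 661 and 188 CPM in TCKO, against 909, 929 and 492 CPM in WT. All 15 tested had a negative estimate (median -0.92), and 2 passed as lower (13.3%, against 18.3% of all genes tested). These were Emr1 (F4/80, log2 fold change -1.54, edgeR adjusted p = 0.00356) and Itgam (-1.03, 0.0287). With the replicate block 10 passed, and 24.6% of all genes did. Without WT replicate 3, 6 passed, and 3313 of all genes did, against 2500 with all libraries. Itgam was lost without any 1 of replicates 1 and 2 of either genotype (0.056 to 0.112). Lyz2, the one with the most reads, had 462, 493 and 132 CPM in TCKO and 609, 635 and 331 CPM in WT. Macrophages also express Cd36, Lpl and Cebpa, and these 3 genes, like the summed markers, had their lowest level of each genotype in replicate 3. This order was not particular to them. Replicate 3 was also the lowest library of each genotype for Bmp4, Plin2 and Fabp5, and the highest for Pparg and Dlk1. The part of macrophage RNA in the values of Cd36, Lpl and Cebpa was not tested. The 15 listed chondrocyte markers summed to 1518, 1412 and 1102 CPM in TCKO, against 9114, 8529 and 10279 CPM in WT. Of these, 14 passed as lower and 1 as higher (100%, against 18.3% of all genes tested). The part of chondrocyte RNA in the values of the 8 genes was likewise not tested.

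**Figure D3:**
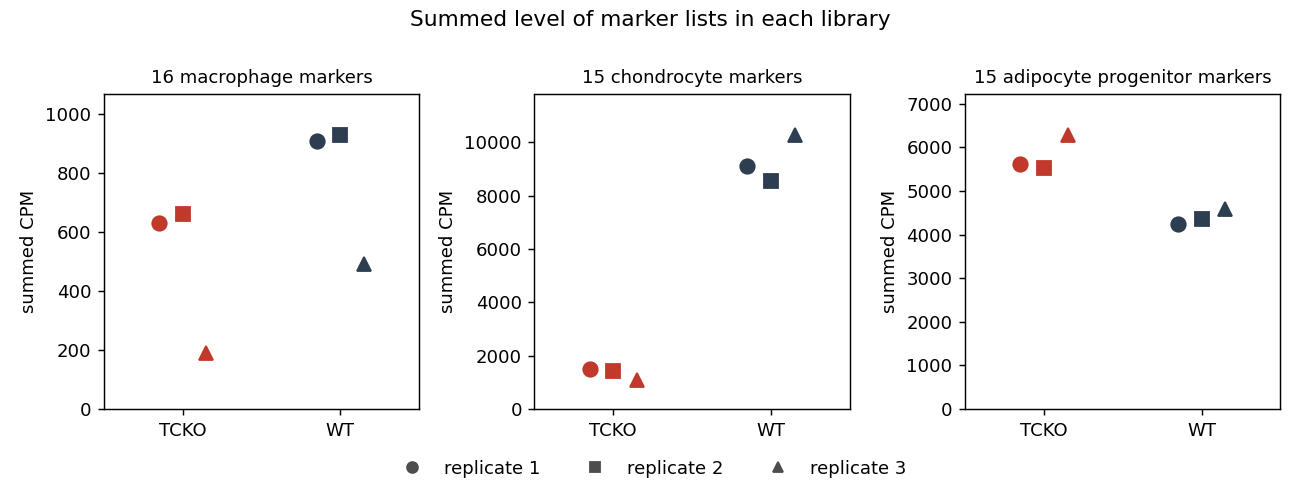
Summed CPM (y axes) of the listed macrophage, chondrocyte and adipocyte progenitor markers in each TCKO and WT library (x axes), with a marker shape per replicate number. The macrophage sum ran from 188 to 661 CPM in TCKO and from 492 to 929 CPM in WT, with replicate 3 lowest in each genotype.

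Paralogs of the 8 genes mostly did not pass, and the 2 of 11 that did were higher (18.2%, against 18.3% of all genes tested). Ebf3 had 27.1, 23.1 and 25.8 CPM in TCKO, against 16.8, 19.1 and 15.2 CPM in WT (log2 fold change 0.57 ± 0.12, edgeR adjusted p = 0.0158), in the opposite direction to the estimate for Ebf1. Lipg, the endothelial lipase of the Lpl family, had 2.33, 2.58 and 1.44 CPM in TCKO and 0.460, 0.570 and 0.479 CPM in WT (2.03 ± 0.39, 0.0102). The WT levels of Lipg rest on few reads, and so does the size of its fold change. Either call was lost without WT replicate 1 (0.0683 for Ebf3 and 0.0514 for Lipg), and that of Ebf3 also without TCKO replicate 1 (0.0689). Ebf2 was at most 0.996 CPM in TCKO and 1.44 CPM in WT, too low to test. Cebpd (-0.14 ± 0.09, adjusted p = 0.306), Cebpg (-0.23 ± 0.14, 0.274) and Zfp521 (-0.46 ± 0.30, 0.330), which opposes Ebf1 in progenitors, did not pass, although Zfp521 did with the replicate block (0.00353). The median over the 11 paralogs was -0.14.

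Of 26 tested factors that promote adipogenesis, 2 were higher and 7 lower (34.6%, against 18.3% of all genes), with a median log2 fold change of -0.23. Rxra, the partner of Pparg on DNA, had 90.4, 85.5 and 76.9 CPM in TCKO, against 119, 107 and 110 CPM in WT (-0.41 ± 0.08, edgeR adjusted p = 0.0127). Its groups did not overlap, and the call was lost without TCKO replicate 2 (0.0509) or WT replicate 1 (0.0622). Bmp4, a ligand that commits progenitors to the fat lineage, was at 25.2, 20.8 and 17.1 CPM in TCKO and 115, 114 and 53.7 CPM in WT (-2.17 ± 0.33, 0.0083). Nfib (-1.04, 0.00105) and the glucocorticoid receptor Nr3c1 (-0.43, 0.00982) were lower too. Ppargc1b, a coactivator of Pparg, was higher (1.57, 0.0149), as was Tle3 (0.47, 0.0217). Bmp4 and Nfib were the 2 that passed with each of the 6 libraries left out in turn. Without TCKO replicate 1, TCKO replicate 2, WT replicate 1 or WT replicate 2, 3 of the list passed. In those fits 1331, 1366, 1218 and 1190 of all genes passed, against 2500 with all libraries.

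Of 26 tested factors that restrain adipogenesis, 4 were higher and 7 lower (42.3%, against 18.3% of all genes), with a median of -0.04. With the replicate block 17 passed, and 24.6% of all genes did. Gata3, which represses Pparg in preadipocytes, had 9.08, 11.3 and 16.4 CPM in TCKO, against 1.496, 1.80 and 1.32 CPM in WT (log2 fold change 2.97 ± 0.29, edgeR adjusted p = 0.0005). Nr2f2 (COUP-TFII) was higher as well (1.02, 0.000881), as were Tgfb1 (0.57, 0.00704) and Wnt5a (0.74, 0.0186). Foxo1, which represses Pparg and is a regulator of insulin-responsive genes, had 17.7, 18.6 and 16.5 CPM in TCKO, against 34.5, 37.6 and 37.5 CPM in WT (-1.06 ± 0.10, 0.000387). Klf3 (-0.71, 0.00185), Sox9 (-1.05, 0.00301) and Runx2 (-0.39, 0.0153) were lower. Sox9 and Runx2 are also the master factors of cartilage and bone, and Sox9 stands among the chondrocyte markers above. Without WT replicate 1, 6 of the list passed, and 7 did without TCKO replicate 1, TCKO replicate 2 or WT replicate 2. Of all genes, 1218 passed in the first of these fits and 1331, 1366 and 1190 in the others, against 2500 with all libraries. Wnt5a was lost without WT replicate 1 or 2 (0.0591 and 0.0809), and Runx2 without any 1 of replicates 1 and 2 of either genotype (0.0524 to 0.0689).

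Fatty acid handling other than Cd36 and Lpl changed in both directions. Of 24 tested uptake and transport genes, 6 were higher and 4 lower (41.7%, against 18.3% of all genes), with a median of 0.27. Fabp5, an intracellular fatty acid carrier with many processed pseudogenes that can share its reads, had 115, 121 and 105 CPM in TCKO, against 59.7, 64.5 and 46.5 CPM in WT (log2 fold change 1.00 ± 0.12, edgeR adjusted p = 0.00152). The fatty acid transporter Slc27a1 had 15.5, 15.2 and 18.6 CPM in TCKO, against 10.6, 9.87 and 10.2 CPM in WT (0.69 ± 0.13, 0.00986, but 0.0525 without WT replicate 2). In both genes every TCKO library was above every WT library, opposite to Cd36. Acsl4 (0.96, 0.000381), Cav1 (0.81, 0.00103) and Mfsd2a (3.16, 0.00143), a transporter of lysophospholipids, were also higher. Acsl1, an acyl-CoA synthetase abundant in fat cells, was lower (-0.63, 0.00654), as were the lipoprotein receptors Vldlr (-0.94, 0.0132) and Lrp1 (-0.38, 0.0475) and the transporter Slc27a3 (-0.51, 0.0319). Of the partners of Lpl, Lmf1, which folds it, did not pass (-0.19 ± 0.12, 0.320), nor did its inhibitor Angptl4 (0.39 ± 0.36, 0.497). Gpihbp1, its endothelial anchor, had no row. Without WT replicate 1 or WT replicate 2, 6 of the list passed (of all genes 1218 and 1190 did, against 2500 with all libraries). Vldlr was lost in both of these fits (0.0581 and 0.0582), and Lrp1 (0.11 to 0.175) and Slc27a3 (0.0923 to 0.124) without any 1 of replicates 1 and 2 of either genotype.

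Genes of lipid storage and release, where Lipe acts, also changed in both directions. Of 17 tested genes of lipolysis and lipid droplets, 2 were higher and 4 lower (35.3%, against 18.3% of all genes). Their median was 0.07. Plin2, the coat protein of lipid droplets in most cells, had 341, 360 and 288 CPM in TCKO, against 88.6, 88.5 and 66.7 CPM in WT (log2 fold change 2.02 ± 0.13, edgeR adjusted p = 0.00013). G0s2, an inhibitor of the lipase Pnpla2, was at 0.443, 0.369 and 0.332 CPM in TCKO and 5.41, 4.75 and 2.16 CPM in WT (-3.39 ± 0.48, 0.00252), from 4, 3 and 3 reads in TCKO. Pnpla2, which acts before Lipe on stored triglyceride, was higher (0.39 ± 0.09, 0.0191, lost without any 1 of TCKO replicates 1 and 2 and WT replicates 1 and 2, at 0.0536 to 0.0815). Its activator Abhd5 (0.24 ± 0.10, 0.126) and the monoglyceride lipase Mgll (0.00 ± 0.10, 0.989) did not pass, although Abhd5 did with the replicate block (0.0373) and without TCKO replicate 3 (0.0473). Bscl2 (seipin, -0.94, 0.000668) and the lysosomal lipase Lipa (-0.46, 0.0249) were lower. Plin2, G0s2 and Bscl2 passed with each library left out in turn, and Lipa did not without TCKO replicate 2 or WT replicates 1 or 2 (0.0761 to 0.104).

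Of 23 tested genes of fatty acid and triglyceride synthesis, 2 were higher and 4 lower (26.1%, against 18.3% of all genes). Their median was 0.04. Gyk (glycerol kinase, 0.94, edgeR adjusted p = 0.00666) and Fasn (fatty acid synthase, 0.34, 0.0112) were higher. Gpam (-0.75, 0.00275), Me1 (-0.44, 0.00341), Lpin1 (-0.64, 0.0161) and Srebf1 (-0.28, 0.0386) were lower. The call of Srebf1 was lost in DESeq2 (0.0769) and with any library but WT replicate 3 left out (0.0582 to 0.139). Without TCKO replicate 1, WT replicate 1 or WT replicate 2, 3 of the list passed. Of all genes 1331, 1218 and 1190 did, against 2500 with all libraries. Gyk, Gpam and Me1 passed with each library left out, while the adjusted p without any 1 of those 3 libraries was 0.055 to 0.0671 for Fasn and 0.051 to 0.071 for Lpin1.

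**Figure D4:**
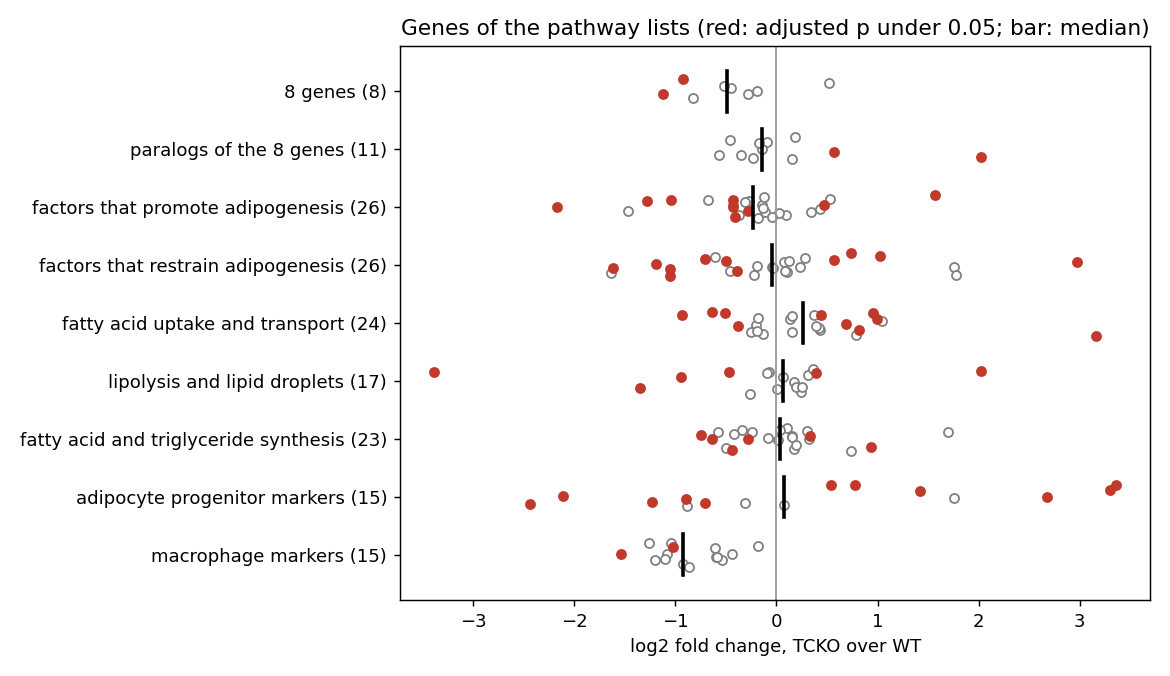
Log2 fold change of TCKO over WT (x axis) of the tested genes of each list (y axis, number tested in brackets), with genes that passed in red and the median as a bar. The 8 genes have a median of -0.49 and the macrophage markers one of -0.92, while the medians of the other 7 lists drawn lie between -0.23 and 0.27.

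Of 15 markers of adipocyte progenitors, 6 were higher and 5 lower (73.3%, against 18.3% of all genes). Their median was 0.08, so the list moved in both directions. Dpp4, a marker of early fat progenitors, had 3.88, 4.30 and 6.09 CPM in TCKO, against 0.691, 0.475 and 0.240 CPM in WT (log2 fold change 3.30 ± 0.39, edgeR adjusted p = 0.0012). The WT levels of Dpp4 rest on few reads, and so does the size of its fold change. F3 (2.68, 0.000174), Cd24a (3.36, 0.000366) and the chemokine Cxcl12 (1.42, 0.000444) were higher. Ly6a (Sca-1) had 18.4, 18.8 and 21.1 CPM in TCKO, against 119, 129 and 69.3 CPM in WT (-2.44 ± 0.24, 0.00114). Lepr, the leptin receptor of marrow stromal cells that can form fat, had 16.5, 15.7 and 30.3 CPM in TCKO, against 79.9, 84.3 and 107 CPM in WT (-2.11 ± 0.27, 0.00344), and Pdgfrb (-0.90, 0.00224) and Cd9 (-0.71, 0.00138) were lower as well. In this list 10 genes passed with each library left out in turn, and how many of all genes did was not counted.

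Over the 6 libraries, the genes most like Cd36 in log2 CPM were Fam114a1, Sbk1 and Mtss1l (Pearson r = 0.999, 0.998 and 0.997, among 11112 genes with a mean of at least 5 CPM), and those most like Lpl were Clip1, Gab1 and Pink1 (0.998, 0.997 and 0.997). For Cebpa they were 2010315B03Rik, Atp8b1 and Apobec1 (0.998, 0.996 and 0.996), and for Ebf1 Vamp8, Pxdc1 and Ndufb7 (0.998, 0.998 and 0.996). Pparg was matched most closely by Hemk1, Plk3 and Phf20l1 (0.994, 0.992 and 0.991), and Cebpb by Gnl3, Pop7 and Srsf7 (0.990, 0.990 and 0.989). Lipe was nearest to Ptn, Il17rc and Glce (0.993 each), and Zfp423 to Stx4a, Urgcp and Taf6 (0.993, 0.992 and 0.992). These are descriptions over 6 points that share genotype and the separation of replicate 3, and with so many genes compared, values this high occur for every one of the 8.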

How the data were processed

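RNA-seq libraries of TCKO and WT osteoblasts, 3 of each, were made by the authors with a TruSeq kit. The deposited values used here are raw read counts per gene, which the authors made from reads aligned to GRCm38. HISAT2 stands in the submitters' processing notes and STAR in the methods of the study, and no source used here names the counting tool. Genes with a total under 10 reads are not listed. The authors' columns of genotype means, fold changes, p-values and FDR were not used.

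Of 16455 genes, 16050 (97.5%) matched RefSeq (GRCm38.p6), and positions are 1-based in that build. In R 4.3.3, edgeR 4.0.16 was run with filterByExpr (13630 genes kept), TMM, a robust quasi-likelihood fit with genotype only and Benjamini-Hochberg adjustment over all genes tested. A gene passed where its adjusted p was under 0.05, whatever its fold, and is called higher or lower in TCKO only then. Log2 fold changes are TCKO over WT, their SE is the estimate divided by the square root of F, and intervals are 95%. CPM used TMM-scaled library sizes, log2 CPM a prior count of 2, and levels per kb the union of exons (GENCODE vM21). Count tests were tested on simulated data, with 11 false calls in edgeR, 23 with the replicate block, 35 in DESeq2 and 9 in limma-voom. On the log2 scale, changes of 1 were recovered for 72, 71, 73 and 68 genes in that order, of 99 (100 in DESeq2). Changes of 2 were recovered for 90, 91, 93 and 90 of 100. The simulated libraries of a genotype were drawn independently, without the closeness of replicates 1 and 2. These counts therefore do not show how many false calls the real libraries give.

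Members and lists were chosen with earlier results of these data known. Named genes are the members, their direct partners, up to 4 passing genes per list and direction by adjusted p, and the 3 genes most correlated with each member. Further markers were named after their values were seen. A gene that meets this rule is not reported here. Deviations of same-numbered TCKO and WT libraries correlated at 0.181, 0.184 and 0.321, above the 0.1 set for taking the numbers to pair the libraries. Replicates 1 and 2 correlated across their numbers as well (0.233 and 0.169), and negatively with replicate 3, so the check sets replicate 3 apart and does not separate 1 from 2. The labels state no shared litter or day. A chi-square per degree of freedom of 2.53 (TCKO) and 1.75 (WT) between replicates 1 and 2, against 15.8 to 23.0 for pairs with replicate 3, was above counting noise, and they were kept as separate libraries. The median chi-square per gene was 0.589 and 0.655, against 0.455 from counting alone, so most genes differed little more than counting allows. Alternatives were RLE and upper quartile scaling, no filter, DESeq2 1.42.0, limma-voom (limma 3.58.1), the replicate block, each library left out and replicates 1 and 2 summed.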

Additional observations from a re-analysis of the deposited data

How the results depend on the processing

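RLE or upper quartile scaling and limma-voom changed no call of the 8 genes, and neither did testing without the filter. Of all genes, 2500 passed (827 with a fold above 2). With libraries left out 1 at a time this ran from 1190 to 3313 (571 to 1058 with a fold above 2), of the 8 genes 0 to 1 passed as higher and 0 to 4 as lower. DESeq2 gave 4 of the 8 as lower, and 2432 of all genes passed in that fit. With the replicate block 4 were lower and 1 higher, 3352 of all genes passed, and 17 restraining factors, 10 macrophage markers, 2 endothelial markers and 0 muscle markers did. The block changed the calls of Cebpa, Ebf1 and Cebpb among the 8 genes, and those of Zfp521, Abhd5 and Dlk1 among the others named. With replicates 1 and 2 summed, 353 genes passed (288 with a fold above 2), 0 of the 8 genes, 0 paralogs, 1 promoting and 3 restraining factors, 4 uptake genes, 2 of lipolysis, 0 of synthesis, 5 progenitor, 1 macrophage, 0 endothelial, 0 osteoblast, 8 chondrocyte and 0 muscle markers. That fit has fewer libraries. DESeq2 passed 5 macrophage markers, and without the filter 1 adipocyte marker passed.

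Leaving out 1 library gave 0 to 3 paralogs, 3 to 12 promoting and 6 to 13 restraining factors, 6 to 12 uptake genes, 4 to 7 of lipolysis, 3 to 8 of synthesis, 0 to 1 adipocyte, 10 to 12 progenitor, 1 to 6 macrophage, 0 to 2 endothelial, 2 to 7 osteoblast, 12 to 14 chondrocyte and 0 to 2 muscle markers. Estimates near 0 changed sign: Pparg (-0.76 to 0.0071, positive without WT replicate 3), Zfp423 (-0.69 to 0.021, positive without TCKO replicate 2) and Mgll (-0.071 to 0.082, with -0.040, -0.031 and -0.071 without TCKO replicate 1, TCKO replicate 2 and WT replicate 3). The cause of these changes was not tested. Pparg and Lipe had 14 to 51 reads per library, and the part of depth in their spread was not tested.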

Other observations

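The balance between paralogs was compared as a ratio of levels per exon length. Ebf1 over Ebf3 was 0.838, 0.966 and 1.33 in TCKO, against 2.14, 1.97 and 2.66 in WT, so every TCKO ratio was below every WT ratio (mean log2 ratio 0.03 ± 0.34 in TCKO and 1.16 ± 0.22 in WT, SD, n = 3 each, exact permutation p = 0.1, 2-sided, the smallest this design allows). Cebpa over Cebpb was 0.165, 0.149 and 0.0637 in TCKO, against 0.455, 0.426 and 0.163 in WT, where WT replicate 3 fell within the TCKO range (exact permutation p = 0.2, 2-sided). Adjusted over these 2 ratios both p-values were 0.2, and no data could have passed 0.05 in this design, so the test says nothing for or against a difference. It also leaves out the replicate numbers. Within each replicate number the ratio was lower in TCKO for both pairs. Dlk1, a preadipocyte factor chosen here after its values were seen, had 34.3, 30.8 and 156 CPM in TCKO, against 13.7, 10.1 and 42.3 CPM in WT, with replicate 3 the highest library of each genotype (log2 fold change 1.76 ± 0.89, edgeR adjusted p = 0.237, and 0.000136 with the replicate block).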
